A study of Homo sapiens with 12 samples.

Results

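The 8 genes described here encode the epithelial cadherin CDH1, the neural cadherin CDH2, the intermediate filament vimentin (VIM) and 5 transcription factors of the epithelial-mesenchymal transition (EMT), SNAI1, SNAI2, TWIST1, ZEB1 and ZEB2. Members were taken by gene symbol in the array's platform annotation. Each symbol named 1 probe set, so 8 of the 21448 probe sets, or 8 of 17687 named genes, were used. The arrays measured RNA of PC-9 and H1975, human lung adenocarcinoma cell lines whose epidermal growth factor receptor (EGFR) carries activating mutations, in 4 groups of 3 arrays. In the SK-216 groups of PC-9 and of H1975, survivors of osimertinib were given the compound SK-216 (its code name) at 100 µM, and those alive 48 h later were taken. The tolerant groups of PC-9 and of H1975 were the survivors themselves on day 8 of 0.5 µM osimertinib, an EGFR inhibitor. All 4 groups therefore had a week of osimertinib, and untreated cells were not analysed here. Whether osimertinib stayed in the medium beside SK-216 is not given, and no group held the added 48 h without the compound, so compound and time cannot be told apart. For the SK-216 samples the source field names naive cells, against tolerant ones in the description and protocol, which were followed here. Only surviving cells were taken. Separate cultures per replicate are not stated, so p-values measure only how these arrays vary, possibly for technical reasons.

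In EMT, epithelial cells loosen their junctions and take on traits of motile mesenchymal cells. CDH1 holds epithelial cells together at adherens junctions, CDH2 forms such contacts in neural and mesenchymal tissue, and VIM builds the intermediate filaments of mesenchymal cells. SNAI1, SNAI2, ZEB1 and ZEB2 are zinc finger proteins that bind E-box sequences and are known as repressors of CDH1, and TWIST1 is a basic helix-loop-helix factor. In lung cancer lines the loss of CDH1 and the presence of VIM and ZEB1 are used as marks of a mesenchymal state.

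Values are log2 signals as deposited, so a difference of 1 is a 2-fold difference. That the scale is log2 was read from the values, which ran from 2.19 to 18.61. Array medians lay between 6.56 and 6.62, and any pair of arrays within a group had r from 0.993 to 0.995 over the probe sets. The 349 probe sets of olfactory receptors, genes not used by such cells, centred on a median of 3.61. Their 95th percentile, 5.14 over all arrays, serves to describe dim signals. Differences were tested with limma over all probe sets and appear as log2 differences with their standard errors after ±, with p-values adjusted by the Benjamini-Hochberg method, where an adjusted p below 0.05 counts as a call. By group means, 5, 6, 5 and 5 of 8 lung adenocarcinoma epithelial markers exceeded the olfactory percentile in PC-9 SK-216, PC-9 tolerant, H1975 SK-216 and H1975 tolerant cells. These were EPCAM and 4 keratins in every group and the surfactant gene SFTPB in tolerant PC-9 (mean 5.19), while the means of NKX2-1 (highest 5.10) and NAPSA did not exceed it. In the same order of groups, 2, 3, 3 and 3 of 5 leukocyte markers, 3, 3, 1 and 1 of 6 endothelial markers and 3 of 6 fibroblast markers in each group exceeded it. Among them were LCP1, at 15.13, 15.03, 5.90 and 5.65, CDH5, at 7.10, 7.47, 4.84 and 4.84, COL1A1, at 6.26, 6.25, 7.98 and 8.95, and COL1A2, at 8.45, 7.90, 8.69 and 9.02, while PTPRC, PECAM1, DCN and LUM did not exceed it. Their part in the results was not tested.

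The cadherins separated the lines. In such bulk samples fewer cells of a type and less RNA per cell cannot be told apart. CDH1 had 12.17, 12.15 and 12.13 log2 signal on the PC-9 SK-216 arrays and 11.97, 12.01 and 11.88 on the PC-9 tolerant arrays. In H1975 it had 6.04, 6.04 and 6.03 with SK-216 and 7.73, 7.46 and 7.56 in tolerant cells. Every PC-9 array lay above every H1975 array, and the H1975 SK-216 arrays were the dimmest of all, still above the olfactory percentile. The order was PC-9 SK-216, PC-9 tolerant, H1975 tolerant and H1975 SK-216. The first pair of neighbours did not overlap but missed the test. CDH2 had 11.14, 10.79 and 11.33 in PC-9 with SK-216 and 11.37, 11.30 and 11.29 in tolerant PC-9 cells. It had 5.47, 5.19 and 4.58 in H1975 with SK-216 and 4.70, 4.86 and 5.33 in tolerant H1975 cells. Both cadherins were thus bright in PC-9. In H1975, CDH2 was within the olfactory range on 1 of 3 SK-216 arrays and 2 of 3 tolerant arrays, so the size of its difference between lines rests on a dim signal. The groups of a line overlapped for CDH2 in PC-9 and in H1975.

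VIM ran the other way. It had 9.48, 9.78 and 9.45 log2 signal in PC-9 with SK-216 and 8.87, 9.57 and 9.64 in tolerant PC-9 cells. H1975 had 15.73, 15.81 and 15.75 with SK-216 and 15.78, 15.75 and 15.72 in tolerant cells. No PC-9 array came near an H1975 array, the groups of a line overlapped, and PC-9 was above the olfactory percentile on all 6 arrays.

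Among the factors, ZEB1 and SNAI1 divided the lines most. ZEB1 had 5.04, 5.82 and 5.19 log2 signal in PC-9 with SK-216 and 4.65, 5.76 and 4.76 in tolerant PC-9 cells. It had 12.01, 11.74 and 11.94 in H1975 with SK-216 and 11.87, 12.13 and 11.95 in tolerant H1975 cells. Its PC-9 signal was within the olfactory range on 1 of 3 SK-216 and 2 of 3 tolerant arrays. SNAI1 had 6.05, 5.20 and 5.65 in PC-9 with SK-216 and 6.25, 6.14 and 5.90 in tolerant PC-9 cells. In H1975 it had 9.79, 10.35 and 9.97 with SK-216 and 10.07, 10.11 and 10.20 in tolerant cells. Both genes were high on all 6 H1975 arrays, with overlap between the groups of each line.

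ZEB2 showed the same order at lower signals. It had 4.81, 4.49 and 4.96 in PC-9 with SK-216, all within the olfactory range, and 5.36, 5.30 and 4.87 in tolerant PC-9 cells. It had 7.16, 6.92 and 7.19 in H1975 with SK-216 and 7.11, 7.44 and 7.18 in tolerant H1975 cells. TWIST1 stayed dim everywhere, with 5.79, 5.03 and 5.17 in PC-9 with SK-216, 5.14, 5.13 and 5.31 in tolerant PC-9 cells, 4.81, 4.82 and 5.01 in H1975 with SK-216 and 4.50, 5.23 and 4.68 in tolerant H1975 cells. Of its arrays, 1, 2, 3 and 2 of 3 lay within the olfactory range in these groups, in that order.

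SNAI2 was the 1 factor that was bright in both lines. It had 10.69, 10.52 and 10.59 log2 signal in PC-9 with SK-216 and 11.25, 11.12 and 11.18 in tolerant PC-9 cells. It had 11.19, 11.39 and 11.38 in H1975 with SK-216 and 11.98, 12 and 11.98 in tolerant H1975 cells. In each line the SK-216 arrays lay below all tolerant arrays. From high to low the order was H1975 tolerant, H1975 SK-216, PC-9 tolerant and PC-9 SK-216, and the middle neighbours overlapped and were not tested against each other.

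**Figure D1:**
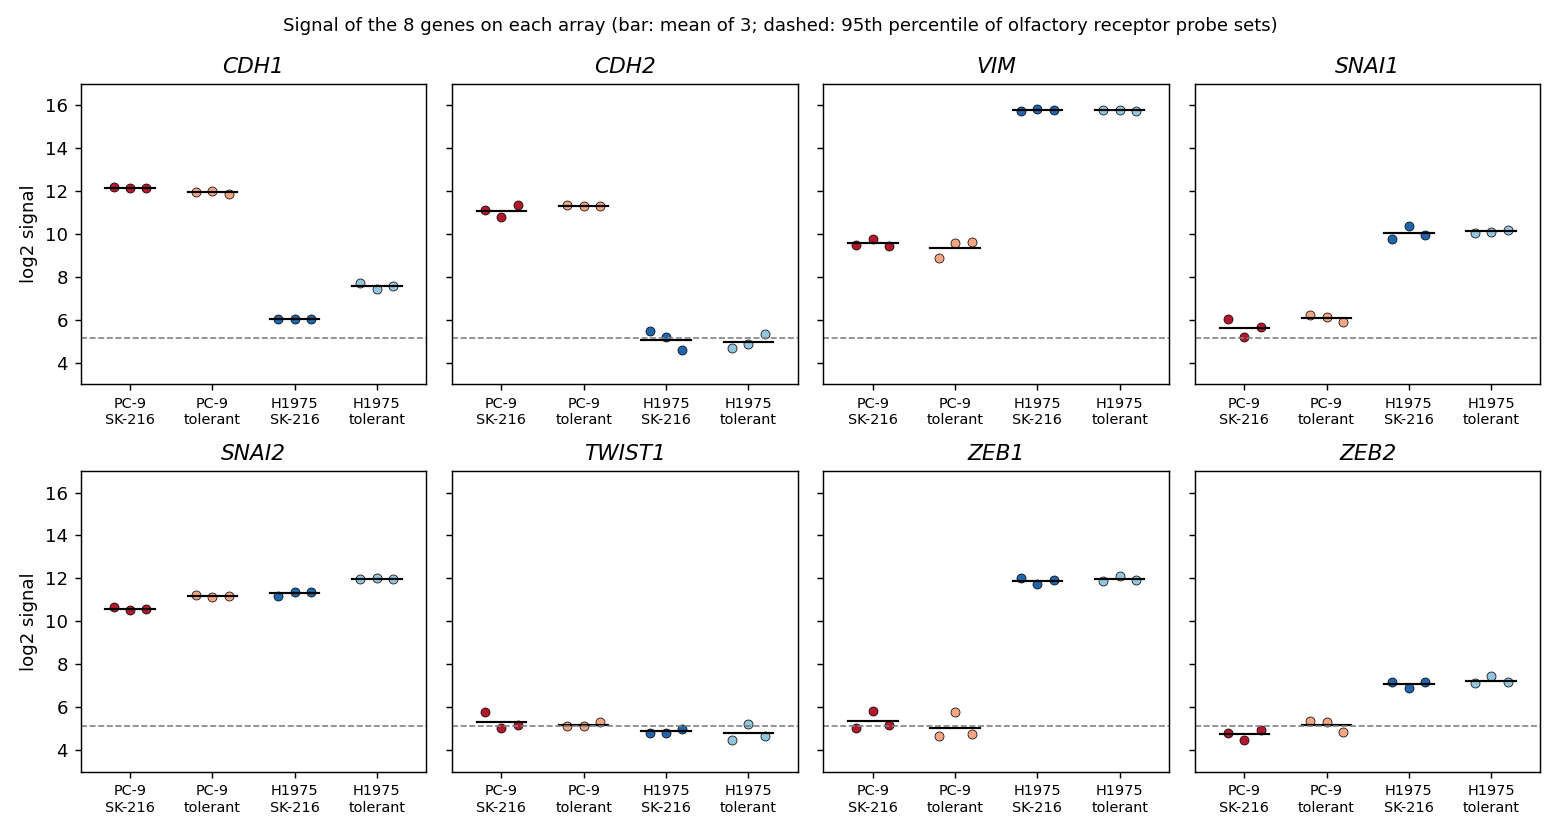
Log2 signal (y axis) of each of the 8 genes on the 12 arrays, by group (x axis), with a bar at the mean of 3 arrays and a dashed line at 5.14, the 95th percentile of olfactory receptor probe sets. CDH1 and CDH2 are high in PC-9, VIM, ZEB1, SNAI1 and ZEB2 are high in H1975, SNAI2 is high in both lines, and TWIST1 lies near the dashed line in all groups.

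Tolerant PC-9 cells had far more CDH1 and CDH2 RNA than tolerant H1975 cells and far less VIM, ZEB1 and SNAI1 RNA. Of the 8 genes, 2 were higher and 5 lower in tolerant PC-9, where 44.0% of all probe sets were called, 21.3% of all higher and 22.7% of all lower. A call between these lines is therefore common, and the sizes say more than the count. The median absolute difference of the 8 was 4.20. Of all 21448 probe sets, 4545 were called with a difference of at least 2-fold. CDH1 averaged 11.95 ± 0.07 in tolerant PC-9 and 7.58 ± 0.14 in tolerant H1975 (SD, n = 3 each), a log2 difference of 4.37 ± 0.13 (limma adjusted p = 1.01e-18). CDH2 differed by 6.36 ± 0.21 (limma adjusted p = 8.50e-18). VIM averaged 9.36 ± 0.43 in tolerant PC-9 and 15.75 ± 0.03 in tolerant H1975 (SD, n = 3 each), a difference of -6.39 ± 0.14 (limma adjusted p = 3.66e-21). Among the factors ZEB1 differed by -6.93 ± 0.23, SNAI1 by -4.03 ± 0.20, ZEB2 by -2.07 ± 0.21 and SNAI2 by -0.80 ± 0.11. The dim sides of ZEB1 and CDH2 lay within the olfactory range on 2 of 3 arrays each, so these sizes depend on the background: with arrays raised to at least the olfactory percentile they were -6.64 and 6.12. The sizes of ZEB1, VIM and CDH2 are therefore not ranked. TWIST1, at 0.39 ± 0.23, did not pass (limma adjusted p = 0.200, 95% interval -0.09 to 0.87). The 3 arrays of each line did not overlap for 7 of the 8 genes, TWIST1 being the exception, against 50.2% of all probe sets.

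The lines also differed in this way after SK-216. Again 2 genes were higher and 5 lower in PC-9, where 43.9% of all probe sets were called, 21.6% higher and 22.2% lower. CDH1 differed by 6.11 ± 0.13 between the SK-216 groups, CDH2 by 6.01 ± 0.21, VIM by -6.19 ± 0.14, ZEB1 by -6.55 ± 0.23, SNAI1 by -4.40 ± 0.20, ZEB2 by -2.34 ± 0.21 and SNAI2 by -0.72 ± 0.11. All 3 PC-9 arrays of ZEB2 lay within the olfactory range, so it was at least 3.86-fold lower, taken against that percentile. CDH2 was within that range on 1 of 3 H1975 arrays and ZEB1 on 1 of 3 PC-9 arrays, so their sizes also depend on the background. With H1975 arrays raised to at least that percentile, the CDH2 difference was 5.82. TWIST1 was at 0.45 ± 0.23 and did not pass, although its arrays did not overlap. The arrays of the lines did not overlap for any of the 8 genes, against 50.6% of all probe sets. The comparisons between lines and those within a line share arrays.

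Upstream sequence is shown for ZEB1, VIM and CDH2, which differed by over 6 on the log2 scale between the tolerant lines, because the SNAI and ZEB factors bind E-boxes. The letters searched were CAGGTG, which reads CACCTG on the other strand, in the 250 bases before the most upstream start in the RefSeq table of GRCh38.p14, with both forms looked for and matches in capitals. ZEB1 is on chromosome 10, plus strand, at chr10:31318167-31318416. VIM is on chromosome 10, plus strand, at chr10:17227991-17228240. CDH2 is on chromosome 18, minus strand, at chr18:28177131-28177380.
ZEB1: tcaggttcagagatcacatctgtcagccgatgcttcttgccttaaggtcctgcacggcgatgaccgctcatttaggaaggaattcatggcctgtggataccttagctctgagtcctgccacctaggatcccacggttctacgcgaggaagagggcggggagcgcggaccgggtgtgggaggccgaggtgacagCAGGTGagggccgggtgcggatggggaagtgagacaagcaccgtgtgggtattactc
VIM: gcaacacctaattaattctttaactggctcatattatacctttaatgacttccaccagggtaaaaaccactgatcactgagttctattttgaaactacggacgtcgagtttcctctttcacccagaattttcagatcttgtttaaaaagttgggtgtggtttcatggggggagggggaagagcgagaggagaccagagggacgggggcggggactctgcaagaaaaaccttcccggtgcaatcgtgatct
CDH2: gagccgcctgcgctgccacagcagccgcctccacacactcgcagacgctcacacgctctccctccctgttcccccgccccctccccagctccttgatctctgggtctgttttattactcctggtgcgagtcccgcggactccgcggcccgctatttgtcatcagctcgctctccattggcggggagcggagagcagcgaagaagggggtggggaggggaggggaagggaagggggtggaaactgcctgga
The ZEB1 window held 1 match, from 57 to 52 bases before the start, and those of VIM, CDH2 and ZEB2 held none. Of all 35116 windows of this length in the table, 17.5% held at least 1. A match is a description of the letters and not of binding. CDH1, SNAI1, SNAI2 and TWIST1 are not shown.

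In PC-9, 1 of the 8 genes was called after SK-216. SNAI2 fell to 10.60 ± 0.09 with SK-216, against 11.18 ± 0.07 in tolerant cells (mean log2 signal ± SD, n = 3 each), a change of -0.58 ± 0.11, or 1.5-fold lower (limma adjusted p = 0.00966). Over all probe sets 0.443% were called, 0.373% higher and 0.0699% lower. The SNAI2 call ended without PC-9 SK-216 array 2 (limma adjusted p = 0.0849, change -0.54) and without the trend of variance on signal (limma adjusted p = 0.121). SNAI1 was at -0.46 ± 0.20 (95% interval -0.88 to -0.05, unadjusted p = 0.0313, limma adjusted p = 0.395) and ZEB2 at -0.42 ± 0.21 (-0.86 to 0.02), both overlapping between groups and neither past the test. ZEB1 at 0.29 ± 0.23, VIM at 0.21 ± 0.14, CDH1 at 0.20 ± 0.13, TWIST1 at 0.14 ± 0.23 and CDH2 at -0.23 ± 0.21 did not pass. CDH1 had the narrowest interval of these 5, from -0.07 to 0.47, and ZEB1 the interval that reached highest, to 0.77. The arrays of both PC-9 groups did not overlap for SNAI2 and CDH1, 2 of the 8, against 15.0% of all probe sets.

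In H1975, CDH1 and SNAI2 were called lower after SK-216, and no other gene of the 8 passed the test. CDH1 averaged 6.04 ± 0.01 with SK-216 and 7.58 ± 0.14 in tolerant cells (SD, n = 3 each), a change of -1.55 ± 0.13, or 2.92-fold lower (limma adjusted p = 4.51e-08). SNAI2 averaged 11.32 ± 0.11 with SK-216 and 11.99 ± 0.01 in tolerant cells, a change of -0.67 ± 0.11, or 1.59-fold lower (limma adjusted p = 0.000322). CDH1 and SNAI2, a known repressor of it, both fell on the same arrays, and a link between them was not tested. Over all probe sets 3.8% were called, 1.44% higher and 2.35% lower. The 6 other genes lay between -0.15 and 0.12, with ZEB2 at -0.15 ± 0.21, SNAI1 at -0.09 ± 0.20, ZEB1 at -0.09 ± 0.23, VIM at 0.01 ± 0.14, TWIST1 at 0.08 ± 0.23 and CDH2 at 0.12 ± 0.21. Their 95% intervals ran from -0.59 at the lowest, for ZEB2, to 0.56 at the highest, for TWIST1 and CDH2. The interval of VIM, -0.28 to 0.31, was the narrowest of the 6. The arrays of both H1975 groups did not overlap for CDH1 and SNAI2, against 18.5% of all probe sets.

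The CDH1 change differed between the lines and the SNAI2 change was not shown to differ. The difference of the SK-216 changes, PC-9 minus H1975, was 1.74 ± 0.19 for CDH1 (95% interval 1.36 to 2.13, limma adjusted p = 4.77e-06). It was the 1 call among the 8, where 1.42% of all probe sets were called, 1.09% higher. For SNAI2 the difference was 0.08 ± 0.15, with an interval from -0.23 to 0.40 (limma adjusted p = 0.884). Among the others it ran from -0.37 ± 0.29 for SNAI1 to 0.38 ± 0.33 for ZEB1, and intervals as wide as -0.30 to 1.06 for ZEB1 leave sizeable differences possible.

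**Figure D2:**
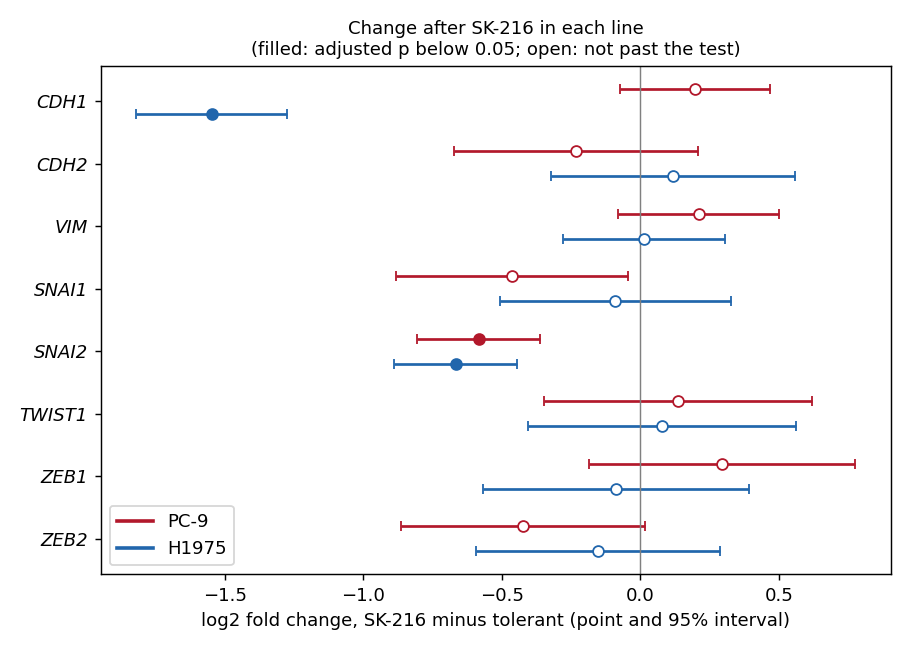
Log2 fold change after SK-216 (x axis, SK-216 minus tolerant, with the 95% interval of the fit) of the 8 genes (y axis) in PC-9, drawn above, and H1975, drawn below. SNAI2 is below 0 in both lines, at -0.58 and -0.67, CDH1 is at 0.20 in PC-9 and -1.55 in H1975, and the open symbols did not pass the test.

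For the genes called after SK-216, the most similar named probe sets were ranked by Pearson's r over the 12 arrays after the mean of each line was subtracted. This is a description, since the arrays share the same SK-216 contrast. For CDH1 they were STEAP4 (r = 0.983), NABP1 (0.980), PDZK1IP1 (0.976), TNFSF10 (0.976) and SAA1 (0.975). These changed in H1975 by -2.49, -0.99, -1.88, -3.54 and -1.48 on the log2 scale, all called. In PC-9 their changes were 0.34, 0.14, 0.56, 0.39 and 0.33, of which the 0.56 of PDZK1IP1 was called (limma adjusted p = 0.0417). STEAP4 is a metalloreductase, TNFSF10 the death ligand TRAIL and SAA1 an acute phase protein. For SNAI2 they were TNFAIP2 (r = 0.937), LPCAT2 (0.929), SAMD9L (0.928), SLC7A8 (0.926) and TGFBI (0.925). Their changes were -0.43, -0.26, -0.52, -0.48 and -0.31 in PC-9, of which that of TNFAIP2 was called (limma adjusted p = 0.0473), and -0.89, -0.47, -1.28, -0.81 and -0.28 in H1975, all called. Whether the PC-9 calls of PDZK1IP1 and TNFAIP2, both near the threshold, hold when an array is left out was not tested.

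Other genes of the cadherin junction were taken from lists of 19 measured cadherins and 9 measured catenins and anchors. In PC-9 none of the 28 was called after SK-216, where 0.443% of all probe sets were called. The medians of the lists were -0.16 and -0.05, against 0.00 over all probe sets. In H1975, 3.8% of all probe sets were called. There CDH11, a mesenchymal cadherin, fell by 1.49 ± 0.28 (limma adjusted p = 0.00207) and CDH3, the placental cadherin, by 0.53 ± 0.14 (limma adjusted p = 0.0322). CDH11 averaged 8.56 ± 0.23 with SK-216 and 10.06 ± 0.35 in tolerant H1975 cells (SD, n = 3 each). The CDH3 call was lost when any 1 of 4 arrays was left out (highest limma adjusted p = 0.166). JUP, plakoglobin, which links cadherins to the cytoskeleton, was the 1 of 9 catenins and anchors called, at -0.71 ± 0.11 (limma adjusted p = 0.000167). Between the tolerant lines, CTNNA1, alpha-catenin, differed by -3.81 ± 0.10 and JUP by 3.50 ± 0.11 (PC-9 minus H1975), with 3 of 9 higher and 3 lower. Of the 19 cadherins, 4 were higher in tolerant PC-9 and 1 lower, where 44.0% of all probe sets were called. Several had means within the olfactory range in both tolerant lines, such as CDH6, at 3.64 in PC-9 and 3.50 in H1975. Another was CDH10, at 3.55 and 3.63. The share called is therefore not read as a result about cadherins. CDH3 was higher by 2.05 ± 0.14. CDH5 was at least 5.04-fold higher, taken against the olfactory percentile, since all 3 H1975 arrays were within its range. CDH11 was lower, at -5.27 ± 0.28, or -4.87 with the PC-9 arrays, 2 of 3 of them dim, raised to that percentile.

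Other transcription factors moved without a common direction after SK-216 in H1975, where 3.8% of all probe sets were called. Of 12 further EMT factors, SOX4 fell by 1.33 ± 0.12 (limma adjusted p = 1.21e-07) and SOX9 rose by 0.57 ± 0.13 (limma adjusted p = 0.0109). The SOX9 call was lost without H1975 tolerant array 1 (limma adjusted p = 0.0956) and without the variance trend (0.0650). Of 13 factors of epithelial transcription and splicing, EHF fell by 1.34 ± 0.19 and ELF3 by 0.76 ± 0.21, both ETS factors, while ESRP1, an epithelial splicing regulator, rose by 1.21 ± 0.21. The lowest EHF array with SK-216, at 4.99, was within the olfactory range, so the size of its fall depends on the background. ESRP1 averaged 5.41 ± 0.52 with SK-216 and 4.21 ± 0.47 in tolerant H1975 cells (SD, n = 3 each). Its tolerant arrays were all within the olfactory range, and so was its lowest SK-216 array, at 4.82. The SK-216 mean was 1.21-fold above the olfactory percentile, so the size of the rise is uncertain. The ELF3 call (limma adjusted p = 0.0438) was lost when any 1 of 8 arrays was left out (highest 0.234). None of the 25 was called in PC-9, where 0.443% of all probe sets were called. Between the tolerant lines, 9 of the 13 epithelial factors were higher in PC-9 and none lower. Over all probe sets 21.3% were called higher and 22.7% lower. The median of these factors was 2.12, against 0.02 over all probe sets. ESRP1, within the olfactory range on all tolerant H1975 arrays, was at least 734-fold higher, while GRHL2 differed by 6.88 ± 0.23 and EHF by 6.54 ± 0.19. Of the 12 EMT factors 3 were higher and 1 lower, against the same shares over all probe sets. Higher were KLF8, at least 9.15-fold over H1975 arrays within the olfactory range, SOX4 at 2.32 ± 0.12 and TWIST2 at 0.63 ± 0.23. TCF3 was lower at -1.62 ± 0.13. The TWIST2 call was lost when any 1 of 3 arrays was left out (highest limma adjusted p = 0.115).

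Genes known to be repressed in EMT were not lowered together with CDH1 in H1975. Of 19 measured, 4 rose and 1 fell, where 1.44% of all probe sets were called higher and 2.35% lower, with a median of -0.02 against 0.01 over all probe sets. EPCAM, an adhesion molecule, rose by 0.77 ± 0.13 and CLDN7, a tight junction claudin, by 0.62 ± 0.13, and KRT7 and MARVELD2 rose by 0.33 ± 0.08 and 0.46 ± 0.12. MARVELD2 lay outside the rule and is named after its value was seen, and whether its call holds under the alternatives was not examined. KRT8 was called lower at -0.24 ± 0.06. Leaving out any 1 of 4 arrays ended the KRT7 call (highest limma adjusted p = 0.166), any 1 of 5 the KRT8 call (0.121), and a fit of the H1975 arrays alone the CLDN7 call (0.0829). Against the same shares over all probe sets, 4 of 18 mesenchymal genes fell in H1975 and none rose: SPARC by 0.58 ± 0.08, FN1, fibronectin, by 0.72 ± 0.12, ITGB1 by 0.36 ± 0.07 and COL1A1 by 0.96 ± 0.21. The COL1A1 call was lost when either of 2 arrays was left out (highest limma adjusted p = 0.0640), and the ITGB1 call without the variance trend (0.185). COL1A1 is also on the fibroblast list, whose part in the result was not tested. In PC-9, where 0.443% of all probe sets were called, none of the 19 was called, and 1 of the 18, CD44, rose by 0.48 ± 0.10 (limma adjusted p = 0.0229). The CD44 call was lost when any 1 of 4 arrays was left out (highest limma adjusted p = 0.176).

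Between the tolerant lines, 17 of the 19 epithelial genes were higher in PC-9 and 2 lower, where 21.3% of all probe sets were called higher and 22.7% lower, with a median of 1.95. EPCAM differed by 7.11 ± 0.13, RAB25 by 6.01 ± 0.18 (5.80 with its dim H1975 arrays, 2 of 3, raised to the olfactory percentile), CLDN7 by 6.01 ± 0.13 and PKP2, plakophilin, by 5.83 ± 0.12. The lower pair, MUC1 at -1.22 and DSP at -0.35, lay outside the rule and is named after its values were seen. Of the 18 mesenchymal genes, 10 were lower in PC-9, such as LOX, which cross-links collagen, at -7.16 ± 0.15 and TNC, tenascin, at least 24.9-fold lower since its PC-9 arrays were all within the olfactory range, and 2 were higher. The higher pair was AXL, a receptor tyrosine kinase, at 3.70 ± 0.15 and NT5E at 2.21, the second named after its value was seen. As with the 8 genes, PC-9 carried CDH2 and AXL beside its epithelial genes.

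**Figure D3:**
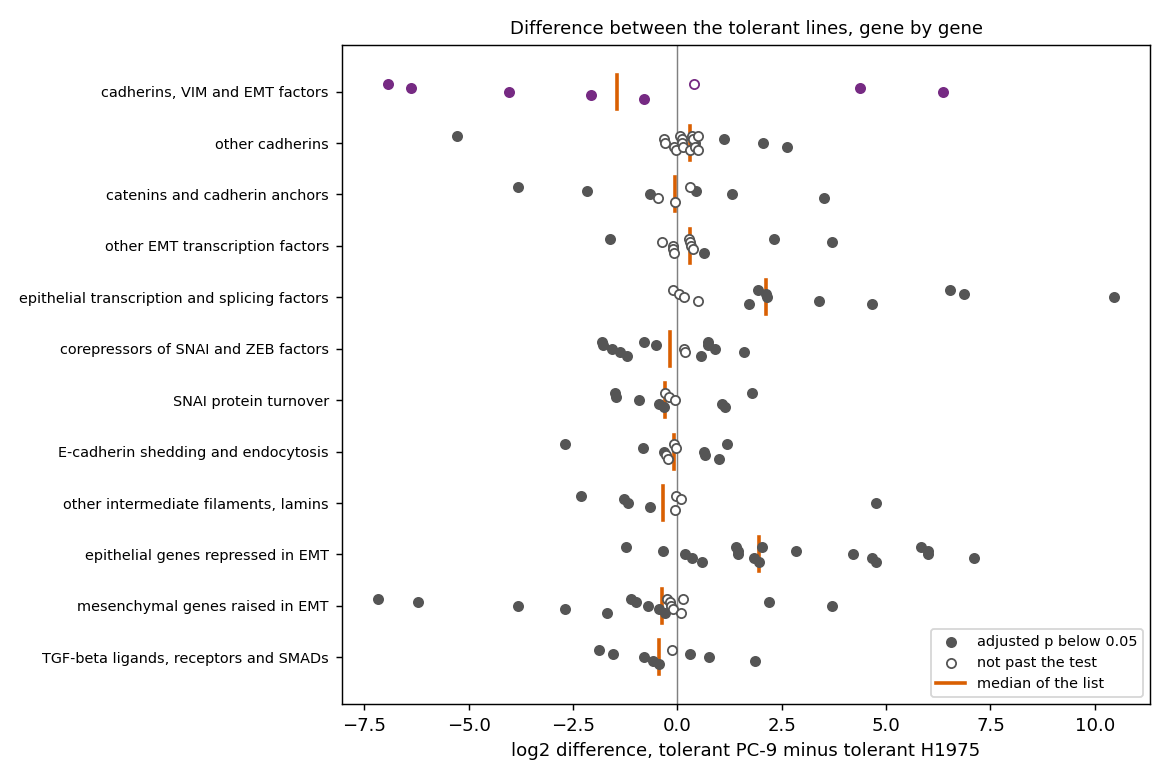
Log2 difference of tolerant PC-9 minus tolerant H1975 (x axis) for each measured gene of 12 lists (y axis), with the 8 genes in the top row, filled where the adjusted p was below 0.05, and an orange bar at each list's median. Both epithelial lists lie mostly right of 0, with medians of 2.12 and 1.95, and the mesenchymal list has its median at -0.37.

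Genes that act with or on the SNAI and ZEB factors were counted after SK-216 against the 0.443% of all probe sets called in PC-9 and 3.8% in H1975, at which few or no calls among so few genes are no result about them. Of 14 corepressors, 11 genes of SNAI protein turnover, 9 ligands, receptors and SMADs of the TGF-beta pathway and 8 other intermediate filament and lamin genes, none was called in PC-9 or in H1975. Of 11 genes of CDH1 shedding and endocytosis, none was called in PC-9 and 1 in H1975, ADAM10, the protease that sheds CDH1, at -0.35 ± 0.08 (limma adjusted p = 0.0102). The ADAM10 call was lost when either of 2 arrays was left out (highest limma adjusted p = 0.0890) and without the variance trend (0.184). Between the tolerant lines, where 21.3% of all probe sets were called higher and 22.7% lower, these lists held calls in both directions, and nothing particular to them is read from the counts. Corepressors had 5 higher and 7 lower in PC-9, such as SMARCA4 at -1.81 ± 0.12, and the turnover list 3 and 5, with GSK3B, a kinase that marks SNAI1 for degradation, at 1.15 ± 0.10. The TGF-beta list had 3 higher and 5 lower, with TGFB1 at 1.86 ± 0.14 and TGFBR3 at -1.89 ± 0.24. The shedding list had 4 higher and 3 lower, with MMP14 at -2.70 ± 0.12 and ADAM17 at 0.99 ± 0.09. Of the filament genes 1 was higher, INA, a neuronal filament, at 4.75 ± 0.12, and 4 were lower, such as NES, nestin, at -2.30 ± 0.21.

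**Figure D4:**
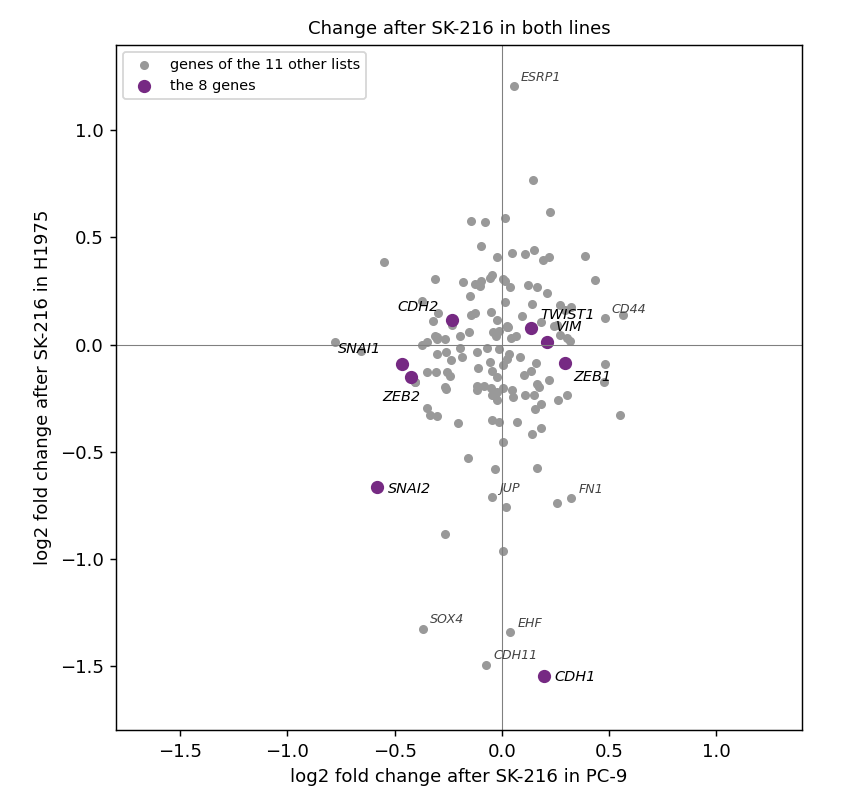
Log2 fold change after SK-216 in PC-9 (x axis) and in H1975 (y axis) for the 8 genes, in purple, and for the measured genes of the 11 other lists, in grey. SNAI2 is the 1 purple point low on both axes, at -0.58 and -0.67, and CDH1 lies at 0.20 in PC-9 and -1.55 in H1975, beside CDH11, EHF and SOX4, which fell by 1.49, 1.34 and 1.33 in H1975.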

How the data were processed

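RNA of 12 samples, 250 ng each, was measured on 1-colour arrays, per the labels' protocols. The authors deposited a log2 signal for each probe set of each array. Per the submitters' processing notes they used Transcriptome Analysis Console. Its version, summarisation and normalization are unstated in the sources used here. The log2 scale was read from the values. No further normalization or filter was applied, and no detection calls were used. Precision is limited by the number of arrays.

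Of 21448 probe sets, 17709 had 1 symbol in the platform annotation and 3739 were unnamed. Groups came from the sample titles. In R 4.3.3, limma 3.58.1 fitted 1 mean per group over the 12 arrays (eBayes with variance trend) and tested 5 contrasts: SK-216 against tolerant cells in PC-9 and in H1975, the difference of these changes, and PC-9 against H1975 among tolerant and among SK-216 arrays. Contrasts within and between lines share arrays. Tests were two-sided, adjusted over all probe sets. The fit was tested on simulated data. Where a group was dim on all its arrays, a fold is a bound: the bright mean against the dim mean with each array raised to the 95th percentile of olfactory receptor signals, a level chosen here in place of detection calls.

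The 8 members and the 11 other lists were chosen with earlier results of these data known. Genes named from a list were up to 4 called ones with the smallest adjusted p per contrast. The 5 most similar probe sets were named for members called after SK-216. Alternatives were 9 other settings and 12 fits without 1 array. Genes of the lists with no named probe set were not analysed here. Same-numbered SK-216 and tolerant arrays did not deviate together from their group means (r between -0.0912 and 0.0295), so replicate numbers were not taken as pairs. Figures were drawn with matplotlib 3.10.9.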

Additional observations from a re-analysis of the deposited data

Results flagged for a closer look

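Among the 8 genes, the change after SK-216 of CDH1 differed between the lines by the test of that difference (PC-9 minus H1975, log2), at 1.74. The same test was passed by 8 genes of the other lists, where 1.42% of all probe sets passed it. It gave 0.67 for JUP, 0.96 for SOX4, 1.38 for EHF, 0.52 for KRT18, 0.34 for KRT8, 1.04 for FN1 and 0.55 for SPARC, and -1.15 for ESRP1, whose tolerant H1975 arrays were all dim, so that this size is uncertain. For EHF the lowest H1975 SK-216 array was dim as well. The call was lost when any 1 of 8 arrays was left out for JUP, of 10 for ESRP1 and of 11 for KRT8 (highest limma adjusted p = 0.0898, 0.129 and 0.124), while those of CDH1, SOX4, EHF, KRT18, FN1 and SPARC held whichever single array was left out. Without the variance trend the CDH1 call held (limma adjusted p = 0.000250) and the others were lost. Groups of 3 arrays are too small for a test of single outlying arrays.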

How the results depend on the processing

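Of the values of the 8 genes under an alternative, 818 kept their direction and side of the threshold. The SNAI2 call in PC-9 was lost in 2 cases: without the variance trend (limma adjusted p = 0.121), which left 0 of the 8 genes called in PC-9, and without PC-9 SK-216 array 2 (limma adjusted p = 0.0849). Members called in PC-9 ranged from 0 to 1 over the 12 fits that left out an array. The CDH1 and SNAI2 calls in H1975 and the 7 calls between lines held under every alternative run. Signs turned 12 times, each time for a value that had not passed: VIM in H1975 was at -0.0244 with quantile normalization, and the rest came from leaving out an array. These ranges were -0.0783 to 0.37 for CDH2 in H1975, -0.035 to 0.35 for VIM in PC-9, -0.01 to 0.03 for VIM in H1975, -0.0483 to 0.34 for the VIM difference, -0.25 to 0.0333 for SNAI1 in H1975, -0.0933 to 0.29 for TWIST1 in PC-9, -0.075 to 0.29 for TWIST1 in H1975 and -0.17 to 0.21 for the TWIST1 difference. Over all probe sets, calls in PC-9 ranged from 30 to 104 over the fits that left out an array (95 with all), with 60, 30 and 59 without PC-9 SK-216 arrays 1, 2 and 3 and 46 without PC-9 tolerant array 3. Calls without the variance trend numbered 18 in PC-9, 448 in H1975 (814 with it) and 99 for the difference (304 with it). The cause was not tested. With replicate numbers as a replicate block inside each line, 58 probe sets were called in PC-9, and with either block all 40 values of the 8 genes kept their call and direction. Signals near the olfactory percentile limit what can be said of TWIST1, of CDH2, CDH5, EHF, ESRP1, KLF8 and RAB25 in H1975 and of ZEB1, ZEB2, CDH11 and TNC in PC-9.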
